A study of Arabidopsis thaliana with 2 samples.

Results

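The peaks described here are the regions of Arabidopsis thaliana chromatin, enriched by an antibody serum against the transcription factor LEAFY (LFY), that the authors' annotation places in the class promoter-TSS. They are the 214 of 529 peaks in the deposited list (40.5%, 95% Wilson interval 36.4 to 44.7) whose annotation label reads promoter-TSS, with TSS meaning transcription start site. Position was thus part of how they were chosen. Peak scores were not. The libraries came from inflorescences of ap1 cal1 plants carrying the construct 35S:LFY-GR, which is LFY joined to a glucocorticoid receptor domain and driven by the constitutive 35S promoter, so the fusion is made well outside the cells that normally express LFY. All plants were grown for 4 weeks and collected 4 hours after 10 µM dexamethasone, the steroid that lets such a fusion enter the nucleus. A rabbit serum against the LFY protein was used for 1 library, and 1 input library was made without it from the same genotype, construct and treatment. The serum may recognise LFY with or without the fused domain. The ap1 cal1 genotype carries mutations in APETALA1 (AP1) and CAULIFLOWER (CAL), so these genes are described here in plants in which they are mutated.

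LFY is a plant-specific DNA-binding protein that turns the lateral meristems of the shoot into flowers. It switches on AP1 and CAL, which secure floral identity, and with other factors the genes that specify the floral organs. A promoter is the stretch before a TSS on which the transcription machinery assembles, and a peak there is usually assigned to that gene. Binding alone does not show that a gene responds.

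With no replicate of either library, no score below carries an error and no difference was tested. The list holds no read counts, so the depth is unknown. Intervals on shares (Wilson) and on medians (from the ranked values) are 95% intervals that cover counting error only. The score is the value that the authors' peak caller gave each peak, on a scale that the file does not name, and it serves only to rank peaks within this list.

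The label itself limits where these peaks can lie. No other peak of the list was centred between 1000 bp upstream and 100 bp downstream of its nearest TSS, and 203 of the 214 were, so closeness to a TSS and an upstream majority follow from how the peaks were chosen and are given as a description. Their centres ranged from 995 bp upstream to 647 bp downstream of the nearest TSS, with a median position of -214.5 bp, negative meaning upstream (interval -280 to -181). Upstream centres numbered 174 (81.3%, interval 75.6 to 86.0) and downstream centres 40. The 250 bp before the TSS held 75 centres (35.0% of the 214), or 30.0 per 100 bp. The next 250 bp upstream held 37, and those from 501 to 750 bp and from 751 bp to the 1000 bp limit held 32 and 30. The first 100 bp after the TSS held 29, nearly the same density as just before it, and the sequence beyond held 11. In all 109 peaks (50.9%, interval 44.3 to 57.6) were centred within 250 bp of the TSS on either side. Because peaks are broad, the interval of 172 (80.4%, interval 74.5 to 85.1) covered the TSS. In 41 of the 42 that did not, the peak ended before the TSS.

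**Figure D1:**
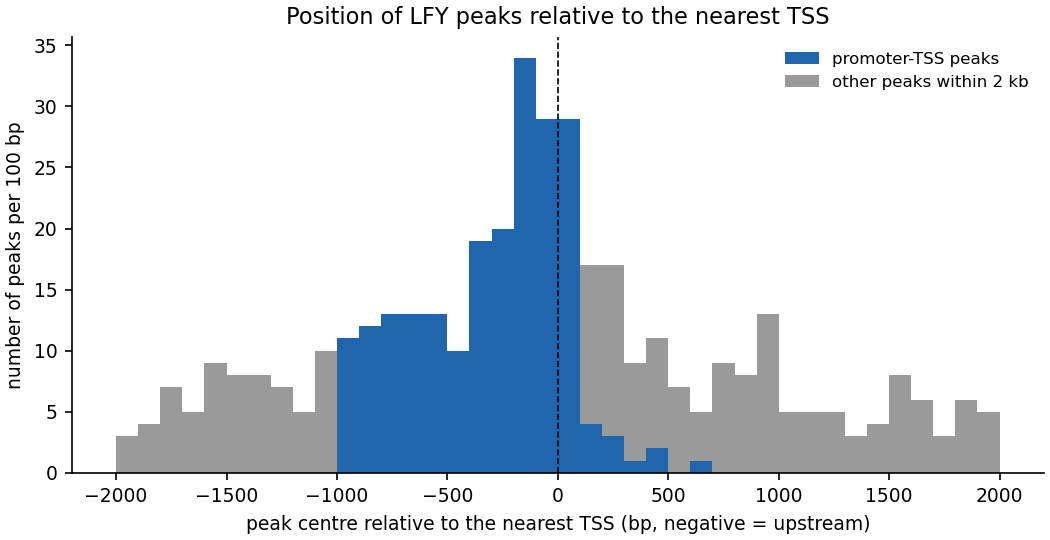
Number of LFY peaks per 100 bp (y axis) by the position of the peak centre relative to the nearest TSS in bp (x axis, negative upstream). Blue bars are the 214 promoter-TSS peaks and grey bars, stacked on them, the other peaks within 2 kb. The blue bars are highest on either side of the TSS, and those past +100 bp are the 11 peaks described in the text.

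The peaks nearest to the limits of the label were as follows. Just inside the upstream edge were FIL (AFO in the list, a YABBY gene of organ polarity, AT2G45190) at 995 bp with a score of 54.3, the peptide transporter gene AT2G02020 at 982 bp (score 151) and AT5G62140 at 979 bp (score 60.9). Just outside it were ATH1, a BELL homeobox gene of the shoot apex, at 1002 bp (score 74.9), MSL10, which encodes a mechanosensitive channel, at 1004 bp (score 659) and AT3G07760 at 1018 bp (score 234). Just inside the downstream edge were AT5G28491 at 94 bp (score 806), the ribosomal protein gene AT1G26880 at 90 bp (score 58.4) and AT2G35585 at 82 bp (score 57.6). Just outside it lay AT1G67900 at 102 bp (score 418), AT4G04670 at 121 bp (score 246) and AT4G32800 at 132 bp (score 53.7).

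Of the 214 peaks 11 were centred more than 100 bp past the TSS of the nearest gene. For 9 of them the promoter-TSS label named a neighbouring gene, as at AT5G08450, a gene of a histone deacetylase complex, where the centre was 414 bp downstream and the label named AT5G08460. The farthest, 647 bp downstream of AT4G10750 (score 74.2), carried the label of AT4G10740. The other 2 were at FUL and BOP1, where the label named another transcript of the same gene.

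In 29 of the 214 peaks the label and the nearest promoter named different genes, and in 23 of these the pair were direct neighbours in the RefSeq gene order. Their centres were within 250 bp of the nearest TSS in 21 cases. The highest scores among them were 544 at AT1G52343 (label AT1G52347), 399 at AT3G27340 (label AT3G27330) and 387 at BCA6, a carbonic anhydrase gene, where the centre lay 2 bp before its TSS and the label named the receptor-like protein gene RLP9. Next came AT5G08450 (327), AT2G31005 (324, label AT2G31010), AT1G78890 (303, label AT1G78882) and AT5G53310 (255), a myosin-related gene whose peak was labelled with the ubiquitin-conjugating enzyme gene UBC10. The last of the 10 highest were AT3G52230 (219), NRP1 (211) and AT4G27980 (166). At NRP1, a nodulin-related gene, the label named the microRNA gene MIR398a, and at AT4G27980 it named the anion channel gene SLAH2. At these loci the list does not settle which of the 2 promoters a peak belongs to, and the other 185 peaks carried 1 gene under both rules.

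Each of the 214 peaks named a different gene, and 208 of these loci were in the RefSeq gene table. By the gene types of the list 207 were protein-coding, 4 were tRNA genes, 1 was ncRNA (MIR319A), 1 was miscRNA (MIR169C) and 1 was a pseudogene. The tRNA genes AT3G09595, AT2G22280, AT2G42970 and AT3G20655 had scores of 164, 80.8, 61.1 and 52.7. All 4 centres were within 135 bp downstream of the tRNA start. At AT3G09595 the label named the neighbouring clock gene RVE8.

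The strongest promoter peak was that of AP1, the MADS-box gene of floral meristem and sepal identity, with a score of 1710.2 and rank 2 in the whole list. In TAIR10 it spans 25985943 to 25987325 on chromosome 1, with its centre 321 bp before the TSS, and it covered the TSS. Rank 6 was AT3G07350, described only as a hypothetical protein (score 1493, 253 bp upstream, chromosome 3 from 2346532 to 2347899). The third promoter peak was at another such gene, AT3G19870 (1021, 519 bp upstream).

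Of the 25 strongest promoter peaks, which reach down to rank 60 of the list, 23 were centred upstream and 19 covered the TSS. Genes with no described function made up 9 of them. After AT3G07350 and AT3G19870 these were AT1G30016 (965), AT4G31875 (905), AT5G28491 (806), AT3G51720 (804), AT1G16080 (578), AT1G31130 (550) and AT1G52343 (544).

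Developmental regulators among the 25 were AP1, LMI2 (MYB17 in the list), RAX1 (MYB37), SLK2, CRN and MIR319A. LMI2 is a MYB gene that promotes the meristem-to-flower switch, and its peak had a score of 747 with the centre 677 bp before the TSS. RAX1, whose MYB protein starts axillary meristems, had 685 at 733 bp upstream. SLK2 encodes a SEUSS-like co-regulator and had 618 at 221 bp upstream. CRN (CORYNE), a membrane kinase-like protein of the pathway that limits the stem cell number, had 582 at 695 bp upstream. MIR319A, which gives rise to a microRNA against TCP genes of leaf and petal growth, had 586 at 562 bp upstream, on chromosome 4 from 12351798 to 12352991.

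Sugar signalling and gibberellin genes were also among the 25. AT2G22190 encodes a trehalose-phosphate phosphatase (score 929, 273 bp upstream) and TPS8 a protein of the trehalose-phosphate synthase family (846, 826 bp upstream). ELA1 (CYP714A1), whose P450 enzyme inactivates gibberellins, had 675 with the centre 61 bp downstream. AGF2, an AT-hook gene of gibberellin feedback, had 671 at 212 bp upstream, and GASA4, a gibberellin-regulated peptide gene, 642 at 552 bp upstream. The remaining 5 were the P450 gene CYP96A9 (835), AT1G32530, which encodes the MND1-interacting protein (597), the translation initiation factor gene TIF3H1 (576), the RNA helicase gene RH39 (539) and the FAR1-family gene AT3G59470 (534).

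**Figure D2:**
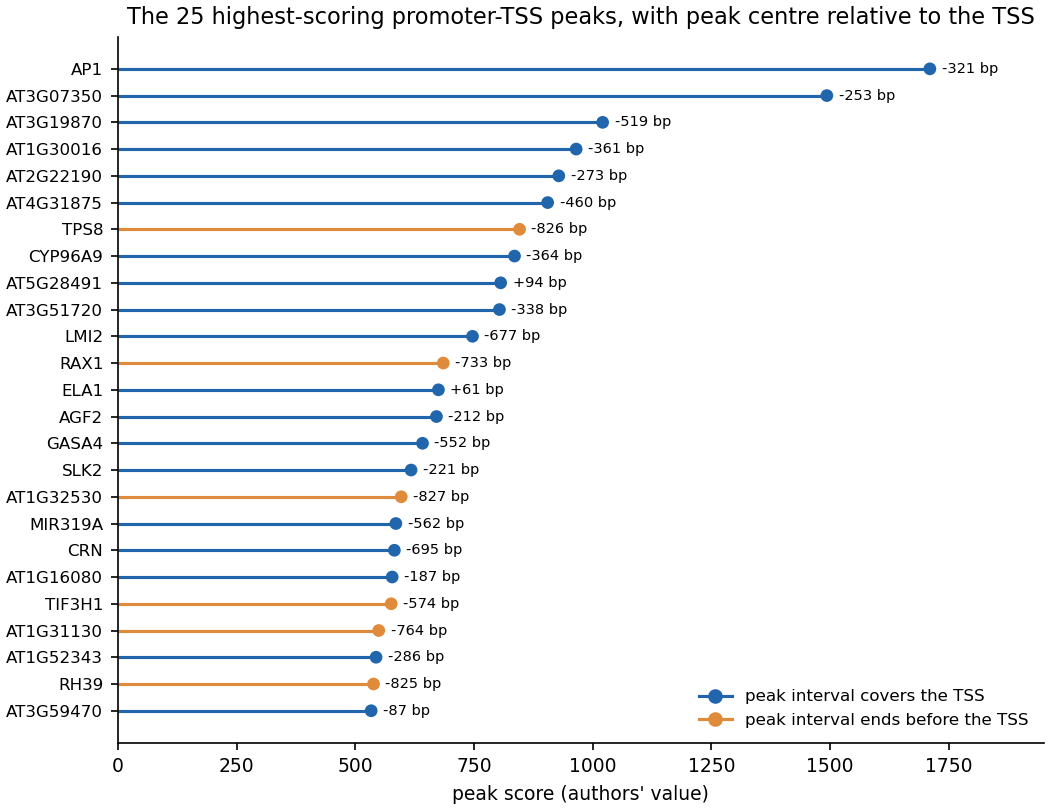
Score (x axis, authors' value) of the 25 strongest promoter-TSS peaks by gene, with the centre's position relative to the TSS printed at each point. Blue marks the 19 peaks whose interval covers the TSS and orange the 6 that end before it, and AP1 and AT3G07350 stand above the other 23.

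The scores of promoter peaks spread over the range of the list. Their median was 122 (interval 101 to 144), against 135 (interval 123 to 163) for the 315 other peaks and 133 for all peaks. Among the 265 higher-scoring peaks of the list were 102 of the 214 (47.7%, interval 41.1 to 54.3). Promoter peaks made up 47 of the 132 strongest peaks of the list (35.6%, interval 28.0 to 44.1), 54 and 59 of the next 2 sets of 132 (40.9% and 44.7%), and 54 of the 133 weakest (40.6%, interval 32.6 to 49.1). The intervals overlap. Intergenic peaks had a median score of 179 (interval 135 to 227) and exon peaks 100 (82.1 to 123). By chromosome the promoter share ran from 38.2% of 76 peaks on chromosome 2 to 44.3% of 106 on chromosome 3.

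Scores within the class were also set beside position. The 75 peaks centred in the 250 bp before the TSS had a median score of 102 and a highest score of 671 (AGF2). The 37 peaks from 251 to 500 bp upstream had a median of 136, the 32 from 501 to 750 bp upstream 176, and the 30 farther upstream 128. The 29 in the first 100 bp after the TSS had a median of 113 and the 11 beyond it 91.0, so the medians followed no steady order with distance. Of the 25 strongest peaks of the whole list 10 were promoter peaks, and 7 of these were centred from 251 to 500 bp upstream. The 75 peaks in the 250 bp before the TSS included 0 of the 10. However, AT3G07350 and AT2G22190 lay just past that edge, at 253 and 273 bp upstream, and AT5G28491 lay 94 bp downstream. Over the 214 peaks the rank correlation (Spearman's rho) between score and the absolute distance from the TSS was 0.15, and that between score and width 0.17. All these points come from 1 library.

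**Figure D3:**
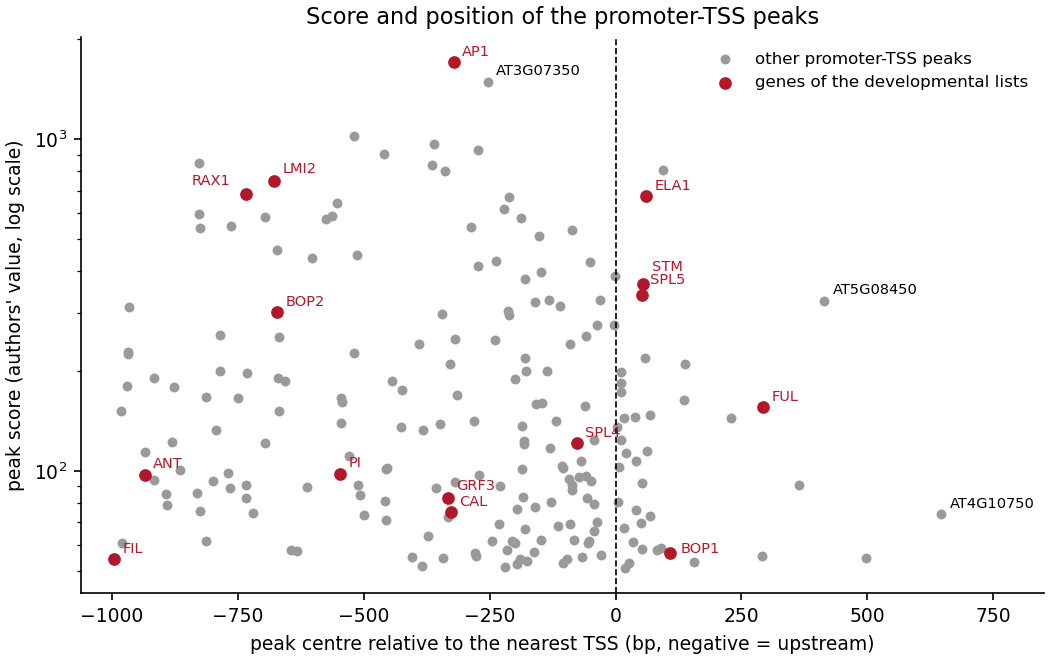
Score (y axis, log scale, authors' value) against the position of the peak centre relative to the TSS in bp (x axis) for the 214 promoter-TSS peaks. Red points are the 15 genes of the developmental lists, which spread over nearly the whole range of both axes, and grey points are all others.

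Promoter peaks had a median width of 1112 bp (interval 1076 to 1183, range 688 to 3775) and other peaks one of 1294 bp (interval 1142 to 1413). Widths over 2 kb were found in 15 promoter peaks (7.01%, interval 4.29 to 11.2) and in 52 other peaks (16.5%, interval 12.8 to 21.0). Among the 132 strongest peaks the median was 1119 bp in promoters (interval 1087 to 1257, 47 peaks) and 1494 bp elsewhere (interval 1325 to 1638, 85 peaks), while the intervals overlapped in the 3 weaker sets. Over all scores intergenic peaks had a median of 1075 bp (interval 1050 to 1105) and exon peaks one of 1648.5 bp (interval 1306 to 1855). Among the 132 strongest peaks the intergenic median was 1384 bp (interval 1147 to 1638, 38 peaks), and that interval overlaps the promoter one. The widest promoter peaks were those of AT1G21680 (3775 bp, score 93.5), AT4G28230 (2883 bp, score 63.8) and the aquaporin gene PIP1C (2844 bp, score 73.1), all with scores below the median of the class.

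**Figure D4:**
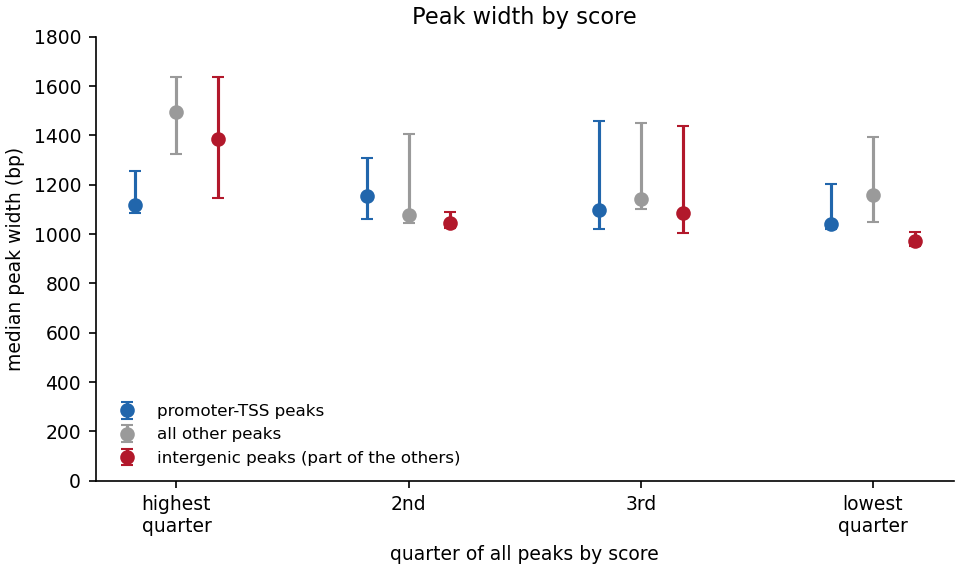
Median peak width in bp (y axis) in 4 sets of peaks ordered by score (x axis), for promoter-TSS peaks (blue), all other peaks (grey) and the intergenic peaks among the others (red). Bars are 95% intervals of the median, and blue and grey intervals are apart in the strongest set only.

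Among 136 developmental and hormone genes taken from 8 lists, 15 had a promoter peak (11.0%, interval 6.80 to 17.4), against 0.549% of all 37899 nuclear genes in the gene table. The lists were drawn up with known LFY targets and earlier results of these data in mind, so this share is not independent evidence. A further 25 of the 136 were the nearest gene to a peak of another class only. Peaks whose label named the list genes LFY, KNAT6 or AUX1 but that were nearest to another gene were not counted. Counting by nearest promoter gave 40 genes with any peak, against 1.32% of all nuclear genes. Promoter peaks thus marked 15 of these 40 (37.5%, interval 24.2 to 53.0), and 214 of the 512 genes named by the whole list (41.8%, interval 37.6 to 46.1). Of the 15 promoter peaks 11 covered the TSS and 8 were among the 265 higher-scoring peaks. Their median score was 155 (interval 82.7 to 675), against 121 for the other 199 promoter peaks, a value inside that interval. Because of how the lists were drawn up, this contrast is not independent evidence either.

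The AP1 clade of MADS-box genes was represented by AP1, CAL and FRUITFULL (FUL, AGL8 in the list), all 3 with a promoter peak. Their scores were far apart. AP1 had 1710.2, FUL 155 (chromosome 5 from 24504851 to 24506849) and CAL 75.0 (chromosome 1 from 9103281 to 9104579). The FUL peak was centred 293 bp downstream and the CAL peak 327 bp upstream, and both covered the TSS. Of the 17 floral organ identity genes AP1 and PISTILLATA (PI), the petal and stamen gene, had one (11.8%). The PI peak had a score of 98.2, lay 546 bp upstream and covered the TSS (chromosome 5 from 6827738 to 6829254). AGAMOUS (AG), SEP4 and UFO had peaks of other classes only.

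Of the 12 genes reported before as LFY targets 6 had a promoter peak (50%, interval 25.4 to 74.6), namely AP1, CAL, PI, LMI2, RAX1 and ELA1, and AG had a peak elsewhere. This count is by nearest promoter. Intergenic peaks assigned to AT5G03837 (1644, rank 3) and AT1G24265 (95.1) were not counted for the reported targets TFL1 (AT5G03840) and SEP3 (AT1G24260), which are close in locus number. Of the 25 genes of flowering time and meristem identity 5 had a promoter peak (20%), namely FUL, CAL, LMI2 and the SBP-box genes SPL5 and SPL4, which promote the floral transition. SPL5 scored 341 with its centre 52 bp after the TSS, and SPL4 scored 122 with its centre 77 bp before it, so both peaks straddled the start. FT, FD, FDP, SOC1 and TEM1 had peaks of other classes only.

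Of the 24 shoot meristem and boundary genes 4 had a promoter peak (16.7%). STM, the homeobox gene that maintains the meristem, had a score of 367 centred 55 bp downstream. BOP2 and BOP1, paired boundary genes of leaf and flower base, had 301 and 56.5, centred 671 bp upstream and 109 bp downstream. RAX1 was the fourth. KNAT2, ATH1, CUC3 and LSH3 had peaks of other classes only.

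Of the 26 genes of polarity and growth 3 had one (11.5%). They were ANT, an AP2-family growth gene (score 97.5, 934 bp upstream), the growth-regulating factor gene GRF3 (82.7, 332 bp upstream) and FIL. The GRF3 peak, 2365 bp wide, carried the label of another locus, AT2G36402. All 3 scores were below the median of the class. AIL6, GRF5 and PRS had peaks of other classes only. The intergenic GRF5 peak was the strongest of the whole list (score 2952, rank 1).

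Of the hormone genes on the lists 1 was in the class. Hormone genes outside the lists were not counted, such as AGF2, GASA4 and the auxin-responsive gene IAA16 (promoter peak 52.7, 105 bp upstream). None of the 15 listed auxin genes and none of the 15 listed cytokinin genes had a promoter peak (0 of 15 allows a share of up to 20%). However, 5 of these auxin genes (YUC1, YUC4, ARF5, ARF6 and IAA17) and 3 of these cytokinin genes (IPT5, CKX3 and ARR3) had peaks of other classes. Of 14 gibberellin genes ELA1 had a promoter peak (7.14%), and GA20OX1 and GA2OX4 had peaks of other classes only. In the control lists TUB6, a tubulin gene, was the 1 of 10 housekeeping genes with a promoter peak (10%, score 249, 240 bp upstream), and 0 of 9 photosynthesis genes had one, which allows up to 33.3%. PSAF, of the photosynthesis list, had a peak of another class.

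**Figure D5:**
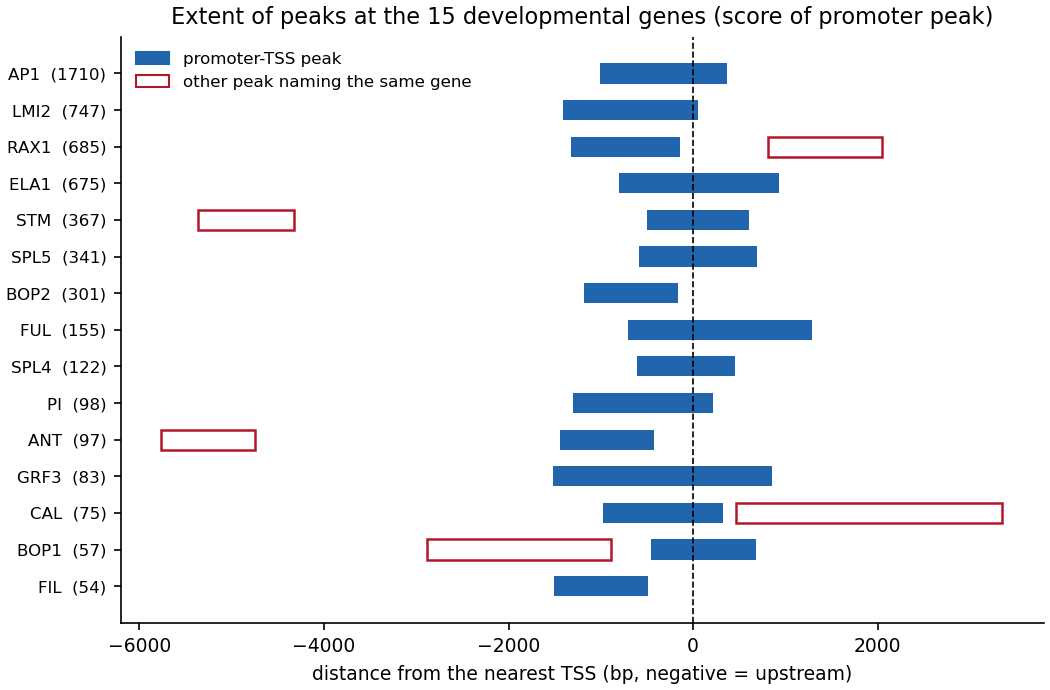
Extent of peaks relative to the nearest TSS in bp (x axis) at the 15 developmental genes, ordered by the score of the promoter peak (in parentheses). Blue bars are promoter-TSS peaks, 11 of which cross the TSS, and red outlines are peaks of other classes that name the same gene, at RAX1, STM, ANT, CAL and BOP1.

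Another peak, of a different class, named the same gene at 8 of the 214 loci, and in 6 of these it had the higher score. BOP1 had 56.5 in the promoter and 656 in intergenic sequence 1887 bp upstream. CAL had 75.0 in the promoter and 307 in an intron. ANT had 97.5 in the promoter and 158 at a centre 5256 bp upstream. RAX1 had 685 and, in an exon, 802. AT3G12920, a BOI-related gene, had 139 and 178, and AT2G19090 had 52.4 and 77.2. The promoter peak was the higher one at AT3G07350 (1493 against 71.4 at the 3' end) and at STM (367 against 88.5 at 4846 bp upstream).

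Few promoter peaks had close company. Another peak lay within 5 kb of 28 of the 214 (13.1%, interval 9.21 to 18.3) and of 67 of the 315 others (21.3%, interval 17.1 to 26.1). The 3 pairs in which both peaks were promoter peaks were GASA4 and the ribosomal protein gene AT5G15220 (gap 198 bp, scores 642 and 448), ACR8, an ACT domain gene, and AT1G12423 (gap 203 bp, 152 and 62.1), and AT3G51650 and AT3G51636 (gap 4121 bp, 199.7 and 147). At AP1 a peak inside the gene (337), which the list assigns to AT1G69110, began 410 bp from the promoter peak. GUT1, a xylan synthesis gene beside LFY in the gene order, had a promoter peak with a score of 429 that lay 1079 bp from a peak (752) which the list labels as intronic in LFY but assigns to AT5G61865. The promoter peak of FIL (54.3) was 2238 bp from a peak with a score of 887 assigned to its neighbour GOS12.

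By words in the gene descriptions, 31 promoter peaks (14.5%, interval 10.4 to 19.8) and 59 other peaks (18.7%, interval 14.8 to 23.4) named a transcription factor or zinc finger gene. AP1, PI and LMI2, whose descriptions hold none of these words, are not in the 31. The transcription factor genes SEP4, CUC3 and PRS are likewise missing from the 59, so both groups are undercounted. Among the 31 were MYB51 (462), a regulator of indole glucosinolates, MYB111 (276), a flavonol regulator, the MADS-box gene MAF4 (295), a repressor of flowering, ERF12 (175), the G-box factor gene GBF2 (161), the jasmonate regulator MYC2 (57.8) and the homeobox gene GL2 (56.6). Hypothetical proteins made up 50 promoter peaks (23.4%, interval 18.2 to 29.5) and 47 others (14.9%, interval 11.4 to 19.3). Kinase, phosphatase and receptor genes numbered 8 (3.74%) and 18 (5.71%), and transporter genes 8 (3.74%) and 9 (2.86%). The counts of other peaks lack the receptor kinase gene BRI1 and the transporter or aquaporin genes SUC1, PIP1;4, PIP3 and HMA3. These word counts thus do not settle which group has the larger share.

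Some groups were noticed only after the values were seen. All 3 peaks whose gene description mentions trehalose were promoter peaks, at AT2G22190, TPS8 and TPS7 (114, 933 bp upstream). Of all 529 peaks 40.5% were in the class, so a count this small says little. The sucrose synthase gene SUS4 had a promoter peak (200.4, 177 bp upstream), while its relative SUS1 had a stronger intergenic one (1540, rank 5 of the list). Other promoter peaks were at the histone acetyltransferase gene HAC5 (219), the histone H3.3 gene AT4G40030 (210.4) and the chromatin remodeller gene CHR4 (170). The receptor kinase gene ERL1 (90.5), the abscisic acid signalling genes ABI1 (313) and ABI5 (54.5), and the peptide gene CLE17 (67.4), a relative of CLV3, were also in the class. Related genes had peaks of other classes, among them the abscisic acid receptor gene PYL5 (442), CLE5 (75.4) and the histone methyltransferase gene SUVH7 (60.7). The lowest scores among promoter peaks belonged to the sugar transporter gene TMT3 (51.2), the elongation factor gene AT1G45332 (51.4) and AT5G20190 (51.8).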

How the data were processed

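Chromatin immunoprecipitation followed by sequencing was done on 1 LFY library and 1 input library. Per the file headers, the list is LFY peaks set against a contrast and annotated by annotatePeaks.pl of HOMER (tair10). The submitters' processing notes name FastQC, MACS 1.4, HOMER and the build TAIR10. How reads were aligned, which threshold was set, and how duplicates and pooling were handled is not given in the sources used here. The deposited peak score is the authors' own and was used to rank and filter. Start, end and distance to the TSS are positions in bp as the authors deposited them.

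Promoter peaks were those whose annotation, before the first parenthesis, reads promoter-TSS. A peak covered the TSS when the distance of its centre did not exceed its width divided by 2. Genes are the nearest promoters of the list. Symbols and gene order came from the RefSeq table of TAIR10.1, whose coordinates were not used. Of 167 list entries (155 distinct loci in 10 lists), 165 matched the table's symbols. The members and lists were chosen with earlier results of these data known. Genes named are those of the 25 strongest promoter peaks, list genes with a promoter peak, the 3 peaks on each side of each edge, the 10 strongest with 2 gene names, the 3 widest and the 3 weakest. Other names were chosen after their values were seen. No test was made, since there is 1 library. The helper functions were checked on simulated data. The planned LFY motif search in promoter sequence was not analysed here. Python 3.11.15, NumPy 2.4.6, SciPy 1.17.1, pandas 2.3.3 and matplotlib 3.10.9 were used.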

Additional observations from a re-analysis of the deposited data

How the results depend on the processing

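The median score and width, the shares by position and score rank, and the count of developmental genes were recomputed with the 265 or the 132 strongest peaks of the list, by distance alone (203 peaks), with 1 gene under both rules (185 peaks), with 1 peak per gene (the same 214) and with peaks no wider than the median of all peaks (120). Width was not recomputed under the limit on width, nor the share among the 265 higher-scoring peaks under a score limit. Other values have no alternative. The median score moved by construction, from 122 to 254 and 539 in the stronger sets. Those sets held 102 and 47 promoter peaks. In them the share centred within 250 bp of the TSS went from 50.9% to 44.1% and 42.6%. The developmental genes with a promoter peak went from 15 to 8 and 7, a count that cannot rise in a smaller set. The share centred upstream was 89.4% (interval 77.4 to 95.4) of the 47 promoter peaks among the 132 strongest, from 81.3%. With narrow peaks only, the share covering the TSS was 74.2%, from 80.4%. Among these 120 peaks 6 developmental genes remained, again a count that could not rise. The other 30 recomputed values stayed within the interval of the reported value or, for gene counts, within 1.5 times. The 30 include the values with 1 peak per gene, which come from the same 214 peaks and could not move. The motif share, with its alternatives, was not run. No paired analysis was possible because there is 1 library of each kind. With 1 library and unknown depth, scores near the lowest of the list have no measured precision.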
